A study of Mus musculus with 21 samples.

Results

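The 43 genes described here are genes that interferons switch on, chosen by name with earlier results of these data known. They comprised 5 transcription factors of the interferon response, 18 antiviral genes and 3 cytosolic RNA sensors. The others were 10 interferon-inducible GTPases and 7 genes of the MHC class I pathway. Of the 43, 41 had a row under their symbol among the 25428 genes of the table. Ifi44 and Gbp6 did not and were not used here. RNA of whole livers from 21 mice was measured on Affymetrix arrays, 1 array per mouse. In 10 mice, called knockout livers here, a floxed Gata4 allele (Gata4tm1.1Sad) was combined with Cre under Clec4g regulatory sequence (Clec4g-icre, a C57BL/6N transgene), a driver for the endothelial cells of the liver sinusoids. The other 11 livers came from sibling controls labelled wild type, all mice were on a standard diet, and the sources used here gave no age, no sex and no word on whether controls carried a floxed allele or the driver. The floxed strain is described as a mixed stock. The numbers in the sample descriptions formed 2 consecutive stretches, called runs: run 1 held 5 controls and 4 knockouts, run 2 held 6 of each.

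Interferons are secreted proteins that warn cells of infection. Type I interferons act through the receptor Ifnar1/Ifnar2 and lead to a complex that contains Stat2 and Irf9 and binds the interferon-stimulated response element (ISRE) of antiviral genes. Interferon gamma acts through Ifngr1/Ifngr2 and leads to STAT dimers that bind the gamma-activated site (GAS); its targets include the GTPases that attack pathogen vacuoles and the genes that load peptides onto MHC class I. Many promoters respond to both, and macrophages, in the liver the Kupffer cells of the sinusoids, respond to both strongly.

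These elements are visible in the promoters of some members. Those shown were picked because their window holds a core. The 60-base stretches were taken from the RefSeq promoter table (GRCm38.p6), are written 5′ to 3′ on the strand of the gene and lie upstream of its start; capitals mark a match to the ISRE core GAAANNGAAA or the GAS core TTCNNNGAA on either strand. The first 4 genes passed the test of genotype and the last 2 did not.
B2m (chr2:122147523-122147582, + strand, ISRE): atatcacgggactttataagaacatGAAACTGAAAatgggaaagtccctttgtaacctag
Rsad2 (chr12:26456538-26456597, - strand, ISRE): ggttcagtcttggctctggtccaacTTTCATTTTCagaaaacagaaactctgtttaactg
Gbp2 (chr3:142620579-142620638, + strand, ISRE): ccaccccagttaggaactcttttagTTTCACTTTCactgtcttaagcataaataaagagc
Psmb8 (chr17:34198072-34198131, + strand, GAS): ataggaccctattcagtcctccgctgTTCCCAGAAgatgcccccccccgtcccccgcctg
Ifit1 (chr19:34640769-34640828, + strand, ISRE): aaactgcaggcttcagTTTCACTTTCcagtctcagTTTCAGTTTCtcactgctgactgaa
Isg15 (chr4:156200856-156200915, - strand, ISRE): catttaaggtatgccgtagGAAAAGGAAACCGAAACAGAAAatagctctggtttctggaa
Ifit1 holds 2 separate ISRE cores, and in Isg15 3 matches overlap. In the 250 bases upstream of the start, the ISRE core was found in 15 of 39 windows (38.5%) of the 33 member genes in the table, against 978 of all 32851 windows (2.98%). The GAS core was found in 9 of the 39 (23.1%), against 2306 of all windows (7.02%). Of the other members that passed, Irf7 held neither core in its window and Oas2 had no window in the promoter table. A match of letters is a description and not evidence of binding.

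In the knockout livers 6 of the 41 members rose and none fell. They were Irf7, Rsad2, Oas2, Gbp2, Psmb8 and B2m, so each class but the RNA sensors had at least 1. The 6 were 14.6% of the members, while 3.28% of all genes tested passed as higher in the knockout and 4.05% as lower (adjusted p under 0.05). The difference, knockout minus control on the log2 scale, was above 0 for 37 of the 41 members (90.2%), against 45.1% of all genes. Its median was 0.28 over the members and -0.01 over all genes. The members were chosen with earlier results of these data known, so these shares are a description and not a test. At an unadjusted p under 0.05, 20 members differed, against 22.4% of all genes. No member had all knockout livers above all controls, as 0.0905% of all genes did, so the genotypes overlapped in every member. In whole liver, more RNA per cell and more cells that express a gene cannot be told apart.

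**Figure D1:**
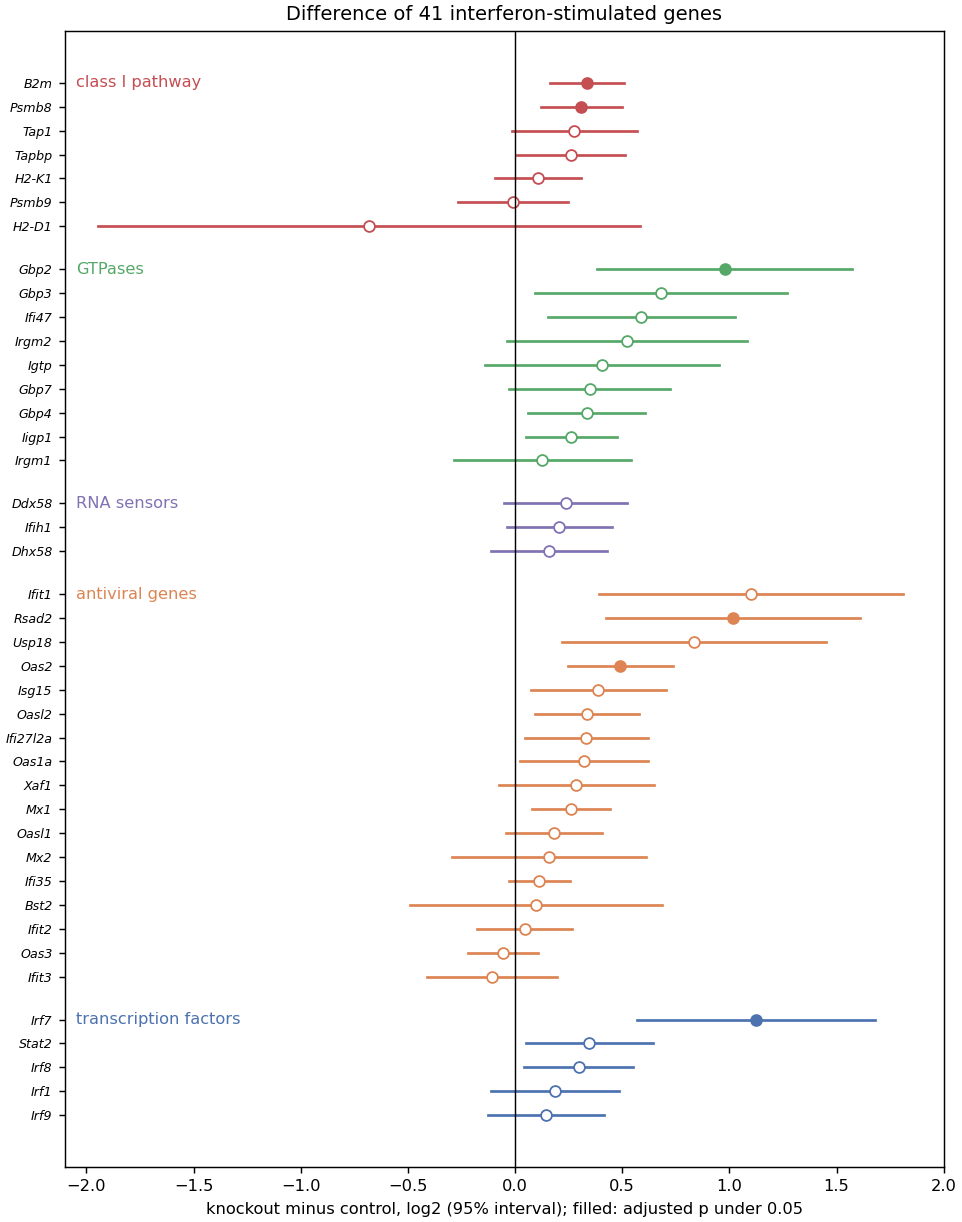
Difference between knockout and control livers (log2, x axis) for the 41 measured members, grouped by class, with 95% intervals from the limma fit; filled points passed at an adjusted p under 0.05. The points of 37 members lie right of 0, and H2-D1 has by far the widest interval, -1.95 to 0.58.

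Libraries stood apart in ways that touch these genes. Knockout replicate 10 had the highest value of the 21 livers in 24 of the 41 members and knockout replicate 2 in 7, while control replicate 2 had the lowest in 13. Control replicates 3 and 11 were the highest controls, each above the control mean of its run in 35 members. Gata4 itself ranged from 6.34 to 7.35 in controls and from 6.10 to 6.92 in knockouts and did not pass in whole liver (difference -0.19 ± 0.10 SE, adjusted p = 0.264). Clec4g, the gene whose regulatory sequence drives the Cre, fell by 0.92 ± 0.23 (adjusted p = 0.0176).

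Among the transcription factors, Irf7 changed most. It is the factor that amplifies type I interferon production and is itself induced by interferon. Its log2 signal had a lowest value of 5.05, a median of 6.38 and a highest value of 7.65 in the controls, against 6.90, 7.52 and 8.67 in the knockouts. All 10 knockout livers lay above the control mean of their run, and 2 above the highest control. The difference was 1.12 ± 0.27 (SE; 2.18-fold, adjusted p = 0.0143), with 1.39 in run 1 and 0.93 in run 2. It passed in each of the 21 fits that left out 1 liver.

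The other 4 factors did not pass. Stat2, a STAT protein of type I signalling, ranged from 6.81 to 8.18 in controls (median 7.53) and from 7.42 to 8.30 in knockouts (median 7.95). That left 1 knockout above the highest control, and the difference was 0.35 ± 0.14 (adjusted p = 0.144). Irf8, a factor of macrophages and dendritic cells, differed by 0.30 ± 0.12 (adjusted p = 0.146). Irf1, a factor induced mainly by interferon gamma, differed by 0.19 ± 0.14, and Irf9, the DNA-binding partner of Stat2, by 0.14 ± 0.13. All 5 differences were above 0, with a median of 0.30.

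**Figure D2:**
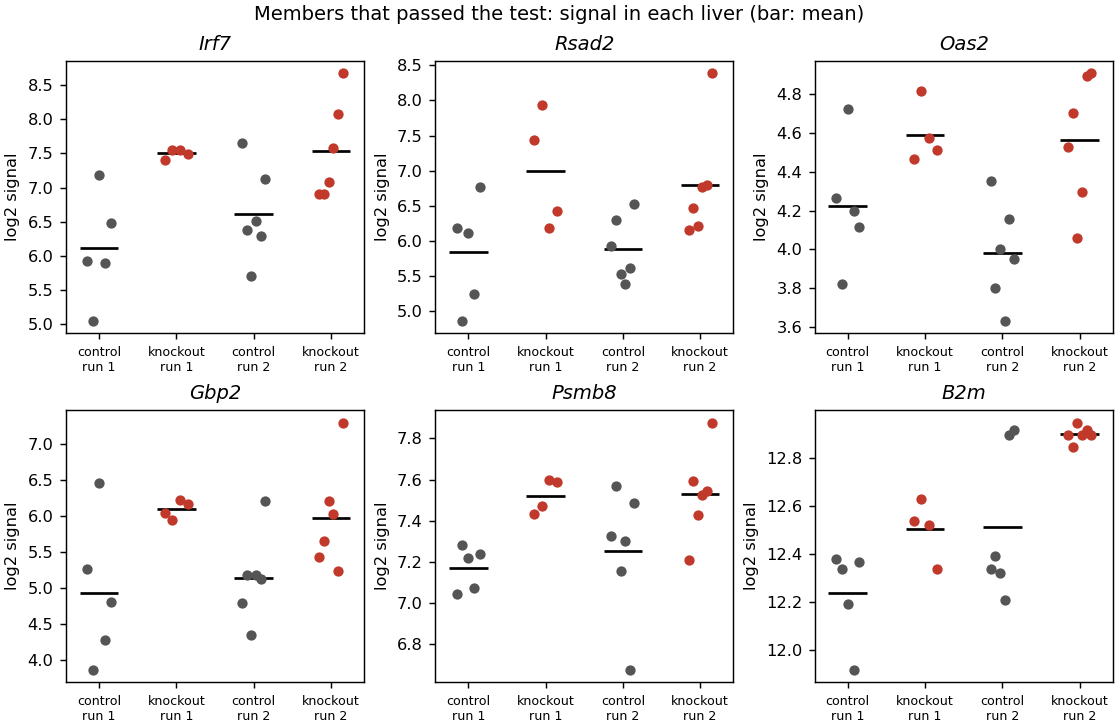
Log2 signal (y axis) of the 6 members that passed, 1 point per liver, by genotype and run, with the mean of each set as a bar. The 6 knockout livers of run 2 lie between 12.85 and 12.95 for B2m, and in every panel some controls overlap the knockouts.

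Of the 17 measured antiviral genes, 2 rose, Rsad2 and Oas2, and 15 differences were above 0 (median 0.28). Rsad2 encodes viperin, which makes a chain-terminating nucleotide. It ranged from 4.87 to 6.77 in controls (median 5.93) and from 6.15 to 8.38 in knockouts (median 6.62). Here 5 knockouts were above the highest control, and the difference was 1.02 ± 0.29 (2.02-fold, adjusted p = 0.0340). Its call was lost in 8 of the 21 fits that left out 1 liver: control replicates 2, 4, 8, 9 and 10 and knockout replicates 1, 2 and 10, with an adjusted p of at most 0.0633.

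Oas2, an oligoadenylate synthetase that activates RNA decay on sensing double-stranded RNA, ranged from 3.63 to 4.72 in controls (median 4.11) and from 4.06 to 4.91 in knockouts (median 4.55). All 10 knockouts were above the control mean of their run and 3 above the highest control. The difference was 0.49 ± 0.12 (1.40-fold, adjusted p = 0.0156) and passed in all 21 fits without 1 liver. Oas2 was dim, with a control median near the median of 3.75 over all genes on an array.

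Ifit1, which binds viral RNA caps, had the second largest difference of the members after Irf7, with a wide spread. Controls ranged from 3.78 to 6.32 (median 5.38) and knockouts from 5.61 to 7.76 (median 6.12). All 10 knockouts were above the control mean of their run, and the difference of 1.10 ± 0.34 missed the threshold (adjusted p = 0.0525). Leaving out control replicate 3, 5 or 11 or knockout replicate 5 brought it past. Usp18, the protease that removes ISG15 and dampens receptor signalling, differed by 0.84 ± 0.30 (adjusted p = 0.0903).

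Isg15, the ubiquitin-like modifier, was dim for a marker of this response. It ranged from 3.27 to 4.51 in controls (median 4.18) and from 3.79 to 4.84 in knockouts (median 4.41), against a median of 3.75 over all genes on an array. With 4 knockouts above the highest control, the difference was 0.39 ± 0.15 (adjusted p = 0.123). The relatives of Oas2 varied: Oasl2 and Oas1a differed by 0.34 and 0.32, Oasl1 by 0.18 and Oas3 by -0.06, none past the threshold. Copies such as Oas1a and its neighbours, and Ifit3 and its close paralog, may share probes, so their values are less certain.

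Mx1, a GTPase that blocks viral particles, was near the bottom of the array range at a control mean of 2.57 ± 0.15 (SD, n = 11) and differed by 0.26 ± 0.09 (SE, adjusted p = 0.0730). It is 1 of 6 members whose control mean lay under the median of all values, where signal can be close to background. The other differences of the class ran from 0.33 for Ifi27l2a and 0.28 for Xaf1 down to 0.05 for Ifit2. Ifit3 was the only antiviral gene other than Oas3 below 0, at -0.11 ± 0.15.

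The 3 RNA sensors did not pass. Ifih1 (MDA5), which recognises long double-stranded RNA, ranged from 7.53 to 8.68 in controls (median 8.05) and from 8.09 to 8.84 in knockouts (median 8.18), with a difference of 0.21 ± 0.12 (adjusted p = 0.314). Ddx58 (RIG-I), which recognises short RNA with a triphosphate end, ranged from 6.70 to 8.11 in controls (median 7.59) and from 7.49 to 8.36 in knockouts (median 7.78). Its difference of 0.24 ± 0.14 was the largest of the 3, and Dhx58 (LGP2), their regulator, differed by 0.16 ± 0.13. All 3 overlapped widely between the genotypes.

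The interferon-inducible GTPases had the highest median difference of the 5 classes, 0.41, with all 9 above 0, but 1 of the 9 passed. Gbp2, a guanylate-binding protein that coats pathogen vacuoles, ranged from 3.86 to 6.46 in controls (median 5.13) and from 5.23 to 7.30 in knockouts (median 6.04). All 10 knockouts were above the control mean of their run, 1 was above the highest control, and the difference was 0.98 ± 0.29 (1.97-fold, adjusted p = 0.0413). Its call rested on many livers: 15 of the 21 fits that left out 1 liver lost it, with an adjusted p of at most 0.0794. The 6 that kept it left out control replicate 1, 3 or 11 or knockout replicate 5, 6 or 9.

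Gbp3 differed by 0.68 ± 0.28 and Ifi47, an immunity-related GTPase of the vacuole, by 0.59 ± 0.21 (adjusted p of 0.149 and 0.0897). Igtp (Irgm3), which guards host membranes, ranged from 5.13 to 7.50 in controls (median 6.56) and from 6.11 to 8.004 in knockouts (median 6.77), with a difference of 0.41 ± 0.26 (adjusted p = 0.392). The remaining GTPases, Irgm2, Gbp7, Gbp4, Iigp1 and Irgm1, lay between 0.13 and 0.52 without passing. Iigp1 was the brightest, at 10.02 ± 0.29 (SD, n = 11) in controls, and Gbp4 the dimmest, at 2.74 ± 0.22.

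**Figure D3:**
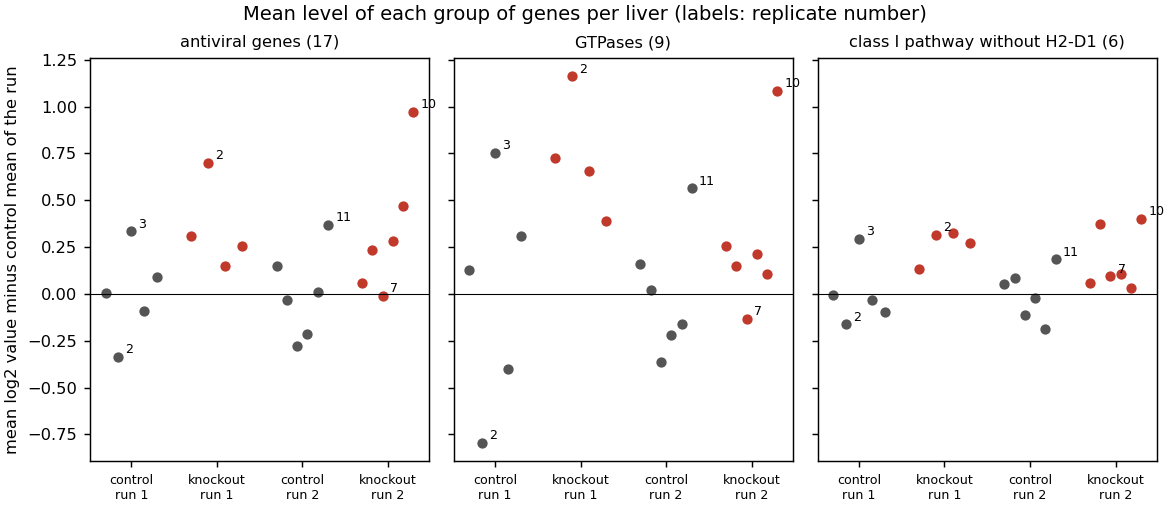
Mean of a class in each liver, as the distance of each gene's log2 value from the mean of that run's controls (y axis), for antiviral genes, GTPases and the class I pathway without H2-D1. Control replicates 3 and 11 lie among the knockouts, and knockout replicate 7 lies at -0.01 for antiviral genes and -0.13 for GTPases.

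Averaged per liver, each gene measured from the mean of that run's controls on the log2 scale, the 17 antiviral genes ranged from -0.34 (replicate 2) to 0.37 (replicate 11) in controls and from -0.01 (replicate 7) to 0.97 (replicate 10) in knockouts. The 9 GTPases ranged from -0.79 (replicate 2) to 0.75 (replicate 3) in controls and from -0.13 (replicate 7) to 1.16 (replicate 2) in knockouts. The same few livers were therefore at the ends of both classes, and the spread among controls was wider for the GTPases. Over all members, 9 of 10 knockouts were above the control mean of their run and 2, replicates 2 and 10, above the highest control. Without knockout replicate 10 the median difference of the members was 0.23, and 3 of them (Irf7, Oas2 and B2m) passed.

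The MHC class I pathway held both of the smallest changes that passed. B2m, the light chain that every class I molecule needs, was among the brightest members: it ranged from 11.92 to 12.91 in controls (median 12.34) and from 12.34 to 12.95 in knockouts (median 12.87). All 10 knockouts were above the control mean of their run, yet 1 was above the highest control, as control replicates 10 and 11 were at 12.89 and 12.91. The difference was 0.34 ± 0.08 (1.26-fold, adjusted p = 0.0195), and it passed in all 21 fits without 1 liver but not without the run term (adjusted p = 0.0529).

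Psmb8 (LMP7), a catalytic subunit of the immunoproteasome, ranged from 6.67 to 7.57 in controls (median 7.24) and from 7.21 to 7.88 in knockouts (median 7.53). In 9 of 10 knockouts it was above the control mean of the run, and the difference was 0.31 ± 0.09 (1.24-fold, adjusted p = 0.0408). This call was lost in 12 of the 21 fits that left out 1 liver, with an adjusted p of at most 0.0737. The 9 that kept it left out control replicate 2, 3, 5, 6, 7, 10 or 11 or knockout replicate 5 or 7. Psmb9 (LMP2), its partner subunit, differed by -0.01 ± 0.12. The peptide transporter gene Tap1 differed by 0.28 ± 0.14 and Tapbp (tapasin), which holds class I at the transporter, by 0.26 ± 0.12, and neither passed. The heavy chain gene H2-K1 differed by 0.11 ± 0.10.

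H2-D1, the other heavy chain gene, stood apart through 1 liver. Its control values ranged from 9.64 to 11.73 (median 10.24) and its knockout values from 4.25 to 11.51 (median 10.20). Knockout replicate 1 was at 4.25, while the other 20 livers lay between 9.64 and 11.73. The gap of 5.39 below the next liver was larger than for any other gene in that liver. With it the difference was -0.68 ± 0.61 (adjusted p = 0.564), and without it 0.0006 ± 0.26 (adjusted p = 0.999). H2-K1 in the same liver was 10.38, within the range of the others.

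Another MHC gene, singled out after its values were seen, sorted the livers alongside H2-D1. H2-Ea, the class II E alpha chain, which is not one of the 43 and is known to be silent in the MHC haplotype of C57BL/6 mice, was between 2.99 and 3.34 in 7 livers (control replicates 3, 4, 7, 8 and 11 and knockout replicates 4 and 6) and between 7.10 and 9.64 in the other 14. H2-D1 was between 10.73 and 11.73 in those 7 livers, between 9.64 and 10.60 in 13 of the others, and at 4.25 in knockout replicate 1, where H2-Ea was 8.94. The H2-D1 ranges did not overlap. H2-K1 overlapped, at 10.57 to 10.99 in the 7 livers and 10.06 to 10.90 in the 13, and so did Psmb8, at 7.07 to 7.59 against 6.67 to 7.88. H2-D1, H2-K1, Psmb8, Psmb9, Tap1, Tapbp and H2-Ea lie on chromosome 17, and B2m on chromosome 2. The 7 livers were 5 of 11 controls and 2 of 10 knockouts, and the part of this pattern in the class I results was not tested.

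**Figure D4:**
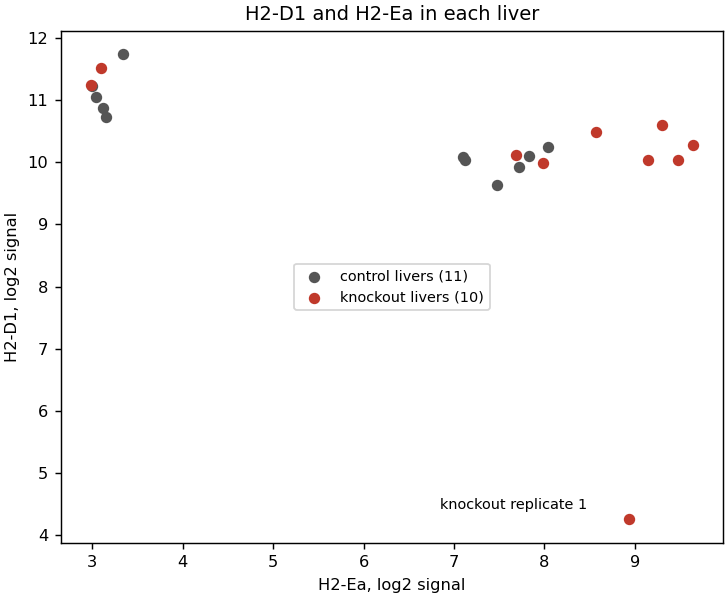
Log2 signal of H2-D1 (y axis) against H2-Ea (x axis), 1 point per liver, 11 control and 10 knockout. The 7 livers with H2-Ea near 3 have H2-D1 from 10.73 to 11.73, 13 others have 9.64 to 10.60, and knockout replicate 1 is at 4.25.

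Type I antiviral genes and the interferon gamma set were then read side by side. The type I side was counted with the transcription factors, which include Irf1, a factor induced mainly by interferon gamma. The transcription factors, antiviral genes and sensors together had 3 of 25 members past the threshold and a median difference of 0.26. The GTPases had 1 of 9 and a median of 0.41, and the class I pathway 2 of 7 and a median of 0.26. Of all genes, 3.28% passed as higher. The difference between these classes was not tested.

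The differences were also read in each run. In run 1 the GTPases had a median difference of 0.89, compared with 0.27 in run 2, and 7 of 9 were larger in run 1. For the antiviral genes the medians were 0.28 and 0.24, and whether the classes differed in this was not tested. Irgm2 differed by 1.15 in run 1 and 0.06 in run 2, and Igtp by 0.89 and 0.04. Low controls of run 1 entered these differences. Irgm2 was at 4.52 and 4.71 in control replicates 2 and 4, and at 5.78 to 6.95 in the other controls. Igtp was at 5.21 and 5.13 in the same livers, and at 6.25 to 7.50 in the other controls. Neither Irgm2 nor Igtp passed the test of the genotype by run term (adjusted p of 0.462 and 0.597). No member passed it, against 0.0315% of all genes, and 3 of 41 members had an unadjusted p under 0.05, a share below the 10.2% of all genes.

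Of those 3, the lowest p was that of Ifit3, which differed by 0.41 in run 1 and -0.49 in run 2 (run 2 minus run 1 of -0.91, adjusted p = 0.140 by limma, unadjusted p = 0.000626). Oas1a went the other way, with -0.02 and 0.57, and Irgm2 was the third. Over all members, 34 of 41 differences were above 0 in both runs. Within a single run no member passed in either run, where 0.0118% of all genes passed in run 1 and 2.17% passed as higher in run 2.

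**Figure D5:**
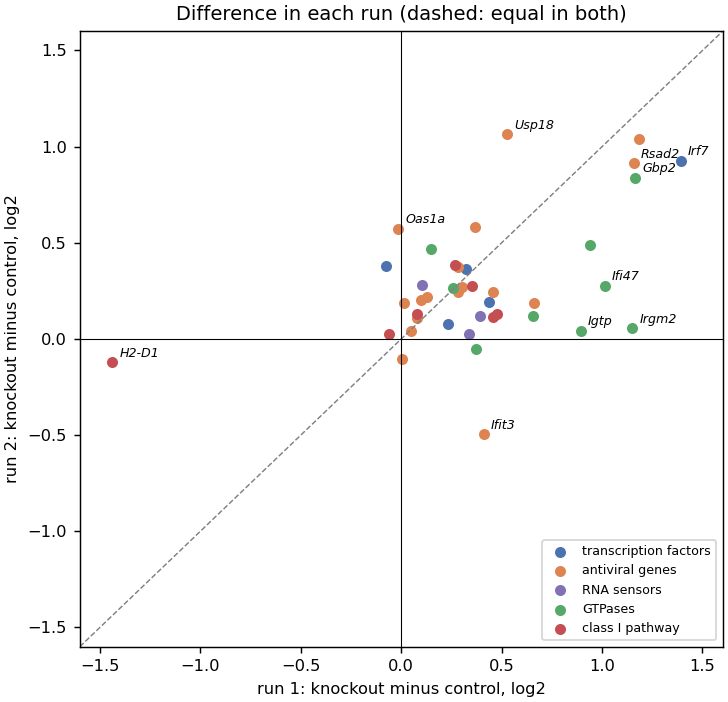
Difference between knockout and control livers in run 2 (y axis) against run 1 (x axis), log2, 1 point per member, coloured by class; the dashed line marks equal differences. Igtp and Irgm2 lie near 0 in run 2 (0.04 and 0.06) and at 0.89 and 1.15 in run 1, and Ifit3 lies below 0 only in run 2.

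Upstream of the members, no interferon gene passed as higher, and most were dim. Ifng was at 3.21 ± 0.14 (SD, n = 11) in controls and 3.16 ± 0.10 (n = 10) in knockouts (difference -0.05 ± 0.06 SE, adjusted p = 0.657), and Ifnb1 at 2.74 ± 0.11 and 2.80 ± 0.17 (0.06 ± 0.06, adjusted p = 0.621). Both were below the array median of 3.75, as were the control means of 11 of the 17 measured ligand genes in all. Signal there can be close to background, so a rise could be missed. Of the 17 differences, 7 were above 0 and 10 below, with a median of -0.03. Of the 17 measured ligand genes none passed as higher and 1 passed as lower, Ifna4, which fell by 0.45 ± 0.11 (adjusted p = 0.0211). The Ifna genes are near-identical copies, so the value of any single one is uncertain.

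The receptors and kinases rose in 4 of 10 cases and fell in none, and all 10 differences were above 0. Of all genes, 3.28% passed as higher and 4.05% as lower. Ifngr2, the signalling chain of the interferon gamma receptor, had the lowest p of the list: it ranged from 7.26 to 7.76 in controls and from 7.72 to 8.14 in knockouts, a difference of 0.52 ± 0.06 (adjusted p = 7.28e-05). Ifngr1, the ligand-binding chain, rose by 0.60 ± 0.11 (adjusted p = 0.0032), and Ifnar2, of the type I receptor, by 0.31 ± 0.06 (adjusted p = 0.0054). Il10rb, shared by the receptors for interferon lambda and interleukin 10, rose by 0.58 ± 0.11. None of 7 inhibitors passed, and the lowest p among them was that of Pias1 (0.19 ± 0.09, adjusted p = 0.214).

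Against 3.28% of all genes that passed as higher, 4 of 17 nucleic acid sensing genes outside the 43 rose and none fell. They were Zbp1, a sensor of Z-form nucleic acid (0.75 ± 0.17, adjusted p = 0.0122), Tlr7, the endosomal receptor for single-stranded RNA (0.73 ± 0.13, adjusted p = 0.0029), Sting1, the adaptor of DNA sensing (0.51 ± 0.10, adjusted p = 0.0060), and Cgas, the DNA sensor upstream of it (0.17 ± 0.05, adjusted p = 0.0493). The call of Cgas was lost in 15 of the 21 fits without 1 liver.

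Of 39 further interferon targets, 8 rose, against 3.28% of all genes, and none fell, with a median difference of 0.30. Cxcl9, a chemokine induced by interferon gamma, ranged from 6.19 to 8.64 in controls and from 7.98 to 9.70 in knockouts, and its difference of 1.46 ± 0.26 (2.76-fold, adjusted p = 0.0030) was larger than that of any member. Ly6e, an antiviral membrane protein, rose by 0.82 ± 0.14, Cmpk2, a mitochondrial kinase encoded beside Rsad2, by 0.94 ± 0.20, and the chemokine Cxcl10 by 0.84 ± 0.21. Parp12, Ifitm3, Tap2 and H2-Q4 rose by 0.29 to 0.39. Tap2 and H2-Q4 lost their call in 5 and 7 of the fits without 1 liver.

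Markers of some immune cells also rose in the knockouts, where 3.28% of all genes passed as higher. Of 11 Kupffer cell and macrophage markers, 7 rose and none fell, with a median difference of 0.90 (1.33 in run 1 and 0.78 in run 2). Their mean level per liver, relative to the controls of the run, ranged from -0.98 to 1.32 in controls and from 0.49 to 1.41 in knockouts. Control replicates 2 and 3, which had the lowest and highest member means of the controls (-0.46 and 0.46), also had the lowest and highest macrophage marker means. Control replicate 8 was the next lowest in both, at -0.43 for the markers and -0.26 for the members. Some other livers did not keep the same order. Control replicate 6 was at 0.81 for the markers and 0.13 for the members, and control replicate 11 at 0.21 and 0.39. Knockout replicate 10, highest in the members at 0.86, was at 1.15 for these markers, below knockout replicates 2, 9 and 3 at 1.41, 1.22 and 1.18. In those 3 livers the members were at 0.71, 0.27 and 0.31, and 0.71 was the highest after knockout replicate 10. How closely markers and members moved together over the livers was not tested.

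Monocyte markers rose in 2 of 6 cases and dendritic cell markers in 2 of 8. B and plasma cell markers rose in 4 of 7 and T and NK cell markers in 2 of 15. None in these lists passed as lower, and of all genes 3.28% passed as higher and 4.05% as lower. All differences of the monocyte and of the B and plasma cell markers were above 0 (medians of 0.92 and 0.57). Dendritic cell markers had 5 above 0 and 3 below (median 0.09). T and NK cell markers had 9 above 0 and 6 below (median 0.05). Of the neutrophil markers 1 of 9 passed, but all 9 differences were above 0, with a median of 1.31. Their mean level ranged from -0.14 to 0.12 in controls and from 0.16 to 5.59 in knockouts, with all 10 knockouts above the highest control. Knockout replicates 6 and 3 stood far apart, at 5.59 and 3.06, and their member means were 0.23 and 0.31. Markers of plasmacytoid dendritic cells, which are high producers of type I interferon, passed in 0 of 7 cases (2 at an unadjusted p under 0.05). Of those 7 differences 6 were above 0, with a median of 0.18 and a range of -0.01 to 0.89. Their mean level ranged from -0.16 to 0.09 in controls and from -0.02 to 0.51 in knockouts, with 8 knockouts above the highest control. Hepatocyte markers were at the top of the arrays and had a median difference of 0.01, with none of 6 past the threshold, and 5 of 8 sinusoidal endothelial markers fell. Dim markers limit these counts, as a rise near background could be missed. Control means lay under the array median for 9 of 9 neutrophil, 11 of 15 T and NK cell and 6 of 8 dendritic cell markers. The same held for 5 of 7 plasmacytoid, 5 of 7 B and plasma cell and 2 of 6 monocyte markers. It held for 0 of 11 Kupffer cell and macrophage markers. The part of these cell types in the change of the members was not tested.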

How the data were processed

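The authors deposited log2 values made with RMA, as the submitters' processing notes state. RMA subtracts background, gives every array the same distribution by quantiles and combines a gene's probes. The sources used here name no RMA version, array type or genome build, and dim genes may be near background. Members were matched to rows by the platform symbol. The main test was limma 3.58.1 (R 4.3.3; lmFit, eBayes) with terms for genotype and run over 21 arrays, and p-values were adjusted by Benjamini-Hochberg across the 25428 genes. A second fit added a genotype by run term. A run is a stretch of consecutive sample numbers; the labels do not call it a batch. Differences are knockout minus control with the standard error of the fit. The p-values set each difference against the spread between livers, which are labelled as biological replicates.

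The members, the other lists and the classes were chosen with earlier results of these data known. Values were given for every member that passed, for the lowest p and the largest difference of each class, and for Irf7, Stat2, Isg15, Igtp and B2m; of each pathway list, up to 6 members that passed by lowest p, or else the one with the lowest p, and Ifng and Ifnb1. Tap2, H2-Q4 and H2-Ea were named beyond that rule, after their values were seen. Same-numbered livers of the genotypes did not deviate together (correlations of -0.09 to 0.18, 3 of 10 over 0.1), so the numbers were not taken as pairs. The fit was tested on simulated data with normal errors drawn independently for each gene. Genes that move together by liver, as these members did, and single outlying livers were not simulated. The number of arrays limits the precision. Alternatives were no run term, each run alone, a replicate block, a second quantile normalization, median centring, a filter on dim genes, an intensity trend with a robust prior, array weights, leaving out each liver, and, chosen after seeing the data, leaving out the 2 arrays least correlated with their group. Motifs were searched in the RefSeq promoter table with Python 3.11.15, and figures drawn with matplotlib 3.10.9.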

Additional observations from a re-analysis of the deposited data

Results flagged for a closer look

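Among the 10 knockout livers, the highest or lowest value was tested for its gap to the next by Dixon's ratio (95% level). The 11 controls were not tested, and the share over all genes was not computed. The 95% level gives about 1 in 20 groups by chance only for independent groups, and the members were measured in the same livers. The count below was therefore not set against that rate. Of the 41 members, 6 had such a liver. Knockout replicate 10 was far above the others in 4 of them: Oasl2 at 4.45 (next 4.03), Ifi47 at 6.88 (next 6.35), Gbp2 at 7.30 (next 6.22) and Gbp4 at 3.99 (next 3.22). Knockout replicate 1 was far below the others in H2-D1, at 4.25 (next 9.99), and knockout replicate 7 in Ifit3, at 3.88 (next 4.37).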

How the results depend on the processing

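Within run 1 and within run 2, which hold fewer livers, 0 members passed as higher by limma, against 6 over both runs. Leaving out 1 liver at a time gave 3 to 9 members; 9 passed without control replicate 3, 8 without control replicate 11 or knockout replicate 5, and 3 without control replicate 4, 8 or 9 or knockout replicate 1, 2 or 10. Irf7, Oas2 and B2m passed in all 21 of these fits, Rsad2 in 13, Psmb8 in 9 and Gbp2 in 6. With the replicate block in place of the run term, 4 members passed, without Rsad2 (adjusted p = 0.0719) and Psmb8 (adjusted p = 0.0817). Psmb8 was also lost with array weights (adjusted p = 0.0658), and B2m without the run term. Without the 2 arrays least correlated with their group, an alternative chosen after seeing the data, 7 members passed: Psmb8 was lost (adjusted p = 0.0618), and Usp18 (0.0403) and Ifit1 (0.0322) were added. Filtering dim genes added Ifit1 (adjusted p = 0.0296, 35 members tested). A second quantile normalization, median centring and the intensity trend with a robust prior kept all 6. Signal over background was not measured, so the 6 members with control means under the array median are the least certain. Apart from the main fit and the fits within a run, the share of all genes called in each fit was not given here. The counts of members in the other fits therefore have no background beside them. The causes of these changes were not tested.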
